A study of Mus musculus with 89 samples.

Results

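The genes described here are 8 genes that mark the stem cells of the mouse intestine, Olfm4, Lgr5, Ascl2, Smoc2, Sox9, Axin2, Rnf43 and Prom1, chosen by name out of 27538 genes measured in clumps of jejunal cells and 23379 genes measured in single jejunal cells. All 8 were present in both tables and none was among the genes that placed clumps along the crypt-villus axis. The mice were C57BL/6 males, untreated, labelled 3 months old (3 plates of single cells of mouse 2 were labelled 4 months), and RNA was read by MARS-seq, a plate method that counts unique molecular identifiers (UMIs), 1 for each captured RNA molecule. A clump is a group of neighboring cells that a mild dissociation leaves attached, sorted by DNA content into pairs (4n, 27 plates of mice 1 to 5) or larger clumps (above 4n, 14 plates of mice 1, 4 and 5), and the single cells filled 44 plates of 4 mice. The labels number the mice of each table from 1 and do not say whether any animal gave both. Epcam and CD24 antibody gates were used to sort most plates of single cells, and Epcam marks epithelium, so the cells are a selected sample of the tissue and not a census.

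Intestinal stem cells sit at the base of the crypt between Paneth cells, divide throughout life and push their daughters up the villus, where division ends. Wnt ligands and R-spondins hold them there: Lgr5 is a receptor for R-spondins, Rnf43 is a ubiquitin ligase that removes Wnt receptors from the surface, and Axin2 is a scaffold that helps to destroy beta-catenin, the latter both switched on by Wnt signaling as feedback. Ascl2 and Sox9 are transcription factors of the crypt base, Olfm4 and Smoc2 are secreted proteins of stem cells, and Prom1 (CD133) is a membrane protein of stem and progenitor cells. Mki67, a protein of dividing cells, and Lyz1, the lysozyme of Paneth cells, served as the reference genes of the crypt.

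On GRCm38 the genes of the Wnt receptor complex and its feedback lay on chromosome 10 (Lgr5, chr10:115450311-115587780, minus strand) and chromosome 11 (Axin2, chr11:108920349-108950783, and Rnf43, chr11:87662722-87735539, both plus strand). Sox9 (chr11:112782224-112787760, plus strand) shared chromosome 11, and Ascl2 (chr7:142966829-142969264, minus strand) was the shortest of the 8 genes, at 2436 bases. Olfm4 (chr14:79984081-80023139) and Smoc2 (chr17:14279506-14404790) lay on the plus strand and Prom1 (chr5:43993620-44102032) on the minus strand. The annotation placed A930009A15Rik, a protein-coding gene of the opposite strand, inside Lgr5 at chr10:115569986-115582448, and it had 1 UMI in all crypt clumps. The study's counting used the strand of the reads. Noncoding genes of the same strand overlap Olfm4, Rnf43 and Prom1 in the annotation, and reads shared with them cannot be told apart.

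Promoters are shown for members whose RNA fell on the villus (Olfm4, Ascl2, Prom1) and for a member whose RNA did not pass the test there (Axin2), as the 250 bases before the start site in RefSeq on GRCm38.p6. Capitals mark each match, on either strand, to TATAA, the core of a TATA box, or to GGGCGG, a GC box, and CTTTG, the core of the site that the Wnt-driven TCF factors bind, was searched as well.

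Olfm4, chr14:80000052-80000301, plus strand: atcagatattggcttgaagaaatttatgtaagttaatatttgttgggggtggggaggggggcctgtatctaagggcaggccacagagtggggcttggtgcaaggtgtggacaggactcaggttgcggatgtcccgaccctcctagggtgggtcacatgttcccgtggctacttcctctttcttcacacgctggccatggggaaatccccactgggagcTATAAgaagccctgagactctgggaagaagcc

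Ascl2, chr7:142969265-142969514, minus strand: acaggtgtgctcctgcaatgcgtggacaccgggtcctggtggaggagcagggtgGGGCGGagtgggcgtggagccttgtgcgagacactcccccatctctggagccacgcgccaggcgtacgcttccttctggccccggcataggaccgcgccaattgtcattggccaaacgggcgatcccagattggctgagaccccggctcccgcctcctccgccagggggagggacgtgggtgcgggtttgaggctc

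Axin2, chr11:108920099-108920348, plus strand: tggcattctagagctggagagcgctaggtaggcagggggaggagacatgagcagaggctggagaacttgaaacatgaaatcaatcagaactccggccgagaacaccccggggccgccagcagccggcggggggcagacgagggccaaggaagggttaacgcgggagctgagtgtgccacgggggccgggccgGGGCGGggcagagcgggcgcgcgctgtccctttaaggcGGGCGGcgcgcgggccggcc

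Prom1, chr5:44101737-44101986, minus strand: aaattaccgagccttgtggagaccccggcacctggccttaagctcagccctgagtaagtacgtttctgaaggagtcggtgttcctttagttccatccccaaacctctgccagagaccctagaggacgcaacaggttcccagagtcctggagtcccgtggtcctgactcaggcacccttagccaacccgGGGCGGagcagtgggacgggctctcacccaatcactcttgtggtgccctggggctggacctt

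RefSeq entries matched 5 of the 8 genes, with 7 start sites in all, and Lgr5, Smoc2 and Sox9 had no entry in the table used. CTTTG matched none of the 7 windows and 48.6% of 32851 promoters of the same length, TATAA matched 1 of the 7 (Olfm4) and 22.8% of all promoters, and GGGCGG matched 3 of the 7 (Ascl2, Axin2, Prom1) and 32.7% of all. A match is a run of letters and was not tested as a binding site.

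After filtering, 5883 clumps of mice 1 to 5 were placed by landmark genes in the crypt (3529 clumps), the mid-villus (1550) or the villus tip (804). Their UMIs were summed by mouse and zone, and levels are given as CPM (counts of a gene per 1000000 UMIs of its sum). Crypt sums held 369045 to 19001409 UMIs per mouse, mid-villus sums 172503 to 2417241 and tip sums 79055 to 816189. Mouse 4 held 72.6% of all crypt UMIs, and 1 UMI in its tip sum equals 12.4 CPM. In the same sums, 20 of 20 genes of dividing cells and 17 of 17 measured Paneth granule genes were lower in both villus zones than in the crypt, and 9 of 10 villus enterocyte genes were higher in the mid-villus and 5 of 10 at the tip. In a sum over many cells, fewer cells with an RNA and less of it in each cell cannot be told apart.

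In edgeR's quasi-likelihood test over all genes, 5 of the 8 stem cell genes were lower in the mid-villus than in the crypt (Smoc2, Ascl2, Sox9, Olfm4 and Prom1, by 5.64-fold to 23.1-fold), against 20.2% of all 14316 genes tested that were called lower and 29% called in either direction. At the villus tip 3 of the 8 were lower (Smoc2, Olfm4 and Prom1), against 22.5% of all genes called lower and 34.5% called in either direction. The members of the receptor complex and its feedback, Lgr5, Axin2 and Rnf43, did not pass in either zone. The median log2 change of the 8 genes was -2.91 in the mid-villus and -1.48 at the tip, beside -0.29 and -0.54 for all genes tested, and changes are best read against these shifts of the whole table.

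Lgr5 had in the crypt 13.9, 29.7, 10.4, 13.8 and 32.5 CPM in mice 1 to 5. Its mid-villus level was 13.7, 36.8, 8.69, 22.5 and 17.4 CPM, and its tip level 29.9, 15.0, 8.58, 0 and 37.9 CPM. The zones overlapped over their whole range, and mouse 3 was the lowest of the 5 in both the crypt and the mid-villus. The log2 change was 0.22 with a 95% interval of -0.68 to 1.13 (edgeR adjusted p = 0.77) in the mid-villus and 0.09 with an interval of -1.01 to 1.18 (adjusted p = 0.93) at the tip. At the crypt level of each mouse the mid-villus clumps would hold 73.2 Lgr5 UMIs and 76 were counted, a ratio of 1.04 (95% Poisson interval 0.818 to 1.30, counting error only).

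Axin2 had 26.3, 10.3, 30.2, 38.0 and 24.4 CPM in the crypt of mice 1 to 5, 37.7, 6.14, 32.3, 6.75 and 23.2 CPM in the mid-villus, and 34.9, 7.52, 15.9, 0 and 63.2 CPM at the tip. Its zones overlapped as well, although mouse 4 had the highest crypt level of the 5 mice and low villus levels. The log2 change was -0.16 ± 0.46 (SE, n = 5 mice per zone, edgeR adjusted p = 0.84) in the mid-villus and -0.18 ± 0.56 (adjusted p = 0.83) at the tip, where 28 UMIs were counted and 39.0 would be at the crypt level. Rnf43 had 10.6, 3.42, 7.56, 15.9 and 5.42 CPM in the crypt, 5.71, 6.14, 10.3, 4.50 and 0 CPM in the mid-villus and was at 0 at the tip in every mouse but mouse 3, with 8.58 CPM. Its log2 change was -0.41 ± 0.53 (edgeR adjusted p = 0.61) in the mid-villus and -0.998 ± 0.730 (adjusted p = 0.29) at the tip. Without mouse 3 the tip change of Rnf43 passed the test at -7.43 (adjusted p = 0.031), a fitted value against tip sums that then hold no Rnf43 UMI, which is no bound.

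Other genes of the Wnt pathway, fixed as a list of 23 of which 20 were tested, gave 1 higher and 5 lower in the mid-villus and 1 higher and 4 lower at the tip, with medians of -0.47 and -0.86. These 5 and 4 of 20 genes lie near the background of 20.2% and 22.5% of all genes called lower. Myc, a target of Wnt signaling that drives growth, fell by 5.17 on the log2 scale in the mid-villus (SE 0.77, edgeR adjusted p = 1.6e-05), and Ccnd1, cyclin D1, fell by 2.75 there and by 3.22 at the tip. Tcf7l2, the TCF factor of the gut epithelium, rose by 1.74 at the tip (adjusted p = 0.00053). In the Notch pathway, which keeps crypt cells undifferentiated, 9 of 12 genes were tested, with 2 higher and 3 lower in the mid-villus and 1 of each at the tip. Hes1, the main Notch target, fell by 2.99 and 1.88, and Numb, an inhibitor of Notch, rose by 1.34 in the mid-villus and 1.48 at the tip. The medians of the Notch list were -0.89 and -0.83. With the mouse as a block, the Wnt list had 4 higher and 5 lower in the mid-villus and 3 higher and 6 lower at the tip. The Notch list then had 3 higher and 3 lower in the mid-villus and 1 of each at the tip. Calls of the 8 stem cell genes numbered 5 and 3 as before. Under this block 2140 of all 14316 genes were called higher and 3877 lower in the mid-villus. At the tip 2224 were called higher and 3728 lower, so the background is larger than without the block.

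Ascl2 had 4.75, 5.71, 8.50, 14.4 and 5.42 CPM in the crypt, was at 0 in the mid-villus of 4 mice and had 4.50 CPM in that of mouse 4. The mid-villus values lay below every crypt value. They rest on 2 UMIs where 36.7 would be at the crypt level, a ratio of 0.0545 (95% Poisson interval 0.0066 to 0.197), and the fitted change was -3.90 ± 0.97 (edgeR adjusted p = 0.0033). At the tip 3 UMIs were counted where 11.8 would be, 2 of them in mouse 4 (24.8 CPM) and 1 in mouse 3 (1.23 CPM), and the change of -1.68 ± 0.99 did not pass (adjusted p = 0.20). Without mouse 4 the tip change was -2.71 and passed (adjusted p = 0.041), and without mouse 3 the mid-villus change was -2.99 and did not (adjusted p = 0.056).

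Sox9 had 21.9, 7.99, 24.2, 43.0 and 8.13 CPM in the crypt of mice 1 to 5. In the mid-villus it was at 0 in mice 1 and 2 and had 2.48, 2.25 and 11.6 CPM in mice 3 to 5. Mouse 5 was the exception to a lower mid-villus level, but it had 2 UMIs in 1 clump there against 3 in the crypt, which set no direction. The fitted change was -3.48 ± 0.69 (edgeR adjusted p = 0.00039). At the tip Sox9 had 4.98, 0, 12.3, 12.4 and 12.6 CPM, where mice 1, 4 and 5 had 1 UMI each. Only mouse 3, with 10 tip UMIs and 6 in the mid-villus, has counts to set the villus zones side by side. The tip change of -1.28 ± 0.67 did not pass (adjusted p = 0.14). Without mouse 5 it was -1.76 and passed (adjusted p = 0.048). The 13 tip UMIs came from 9 clumps, and 6 of the 13 lay in 2 clumps with at least 10 UMIs of 50 tuft cell markers, a class held by 2 of 804 tip clumps. The part of tuft cells in the tip level was not tested further.

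Smoc2 had 16.1, 22.8, 19.8, 72.4 and 18.97 CPM in the crypt. In the mid-villus it was at 0 in mice 1, 2 and 5 and had 1.65 and 4.50 CPM in mice 3 and 4, and at the tip the only value above 0 was the 24.8 CPM of mouse 4, from 2 UMIs. All mid-villus values lay below all crypt values, and its mid-villus change of -4.53 ± 0.74 (edgeR adjusted p = 4.0e-05) was the largest among the 8 genes in that zone. The tip change was -4.18 ± 0.98 (adjusted p = 0.0015), with 2 UMIs counted for 35.9 at the crypt level. Olfm4 had 4.02, 13.7, 4.41, 25.7 and 8.13 CPM in the crypt, 1.24 and 4.50 CPM in the mid-villus of mice 3 and 4 and 0 in the others, and 12.4 CPM, a single UMI, at the tip of mouse 4 alone. Each mouse was lower on the villus than in its own crypt. At the tip, however, the crypt level gives only 0.807 UMIs in mouse 1 and 0.643 in mouse 5, and mouse 4 had 1 UMI. The tip values of these mice therefore set no direction. The fitted change of Olfm4 was -3.32 ± 0.82 in the mid-villus (edgeR adjusted p = 0.0030) and -3.73 ± 1.24 at the tip (adjusted p = 0.021). The tip call of Olfm4 was lost without mouse 2 (adjusted p = 0.078) or mouse 3 (adjusted p = 0.10).

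Prom1, the most counted of the 8 genes with 2219 crypt UMIs, had 32.2, 41.1, 56.7, 99.9 and 46.1 CPM in the crypt of mice 1 to 5. The mid-villus values were 5.71, 7.36, 7.03, 24.7 and 5.80 CPM, all below the lowest crypt value. Tip values were 0, 12.5, 14.7, 37.2 and 0 CPM, of which that of mouse 4 overlapped the crypt range. Prom1 fell by 2.496 ± 0.46 in the mid-villus (edgeR adjusted p = 0.00019) and by 1.90 ± 0.52 at the tip (adjusted p = 0.0056), and its mid-villus UMIs were 0.159 of those expected at the crypt level, beside 0.0517 for Smoc2. Mki67 and Lyz1 were lower in both zones, at -3.81 and -3.11 in the mid-villus and -4.12 and -3.39 at the tip. Of 15 tested genes on a list of 16 other stem cell markers, 8 were lower in the mid-villus and 7 at the tip, among them Slc12a2, an ion cotransporter of crypt cells (-4.28), and Cdca7 (-3.77), while Phlda1 rose by 2.64 at the tip. Hopx, a gene linked to slowly dividing crypt cells, fell by 2.03 at the tip, and the list's medians were -2.33 and -3.23. With the mouse as a block 1 of the list was higher and 9 were lower in the mid-villus, and 1 was higher and 7 were lower at the tip. Of the 11 immune cell genes 8 were tested, and 3 were lower in the mid-villus (among them Cd52 and Gzma) and none at the tip, with medians of -2.25 and -1.93; with the mouse as a block 4 were lower in the mid-villus and 3 at the tip. The 3 tested stromal genes gave no call, with medians of 0.57 and -0.45, and with the mouse as a block 1 was lower in each zone. The same block gave 10 of 10 villus enterocyte genes higher in the mid-villus, and 7 higher and 1 lower at the tip.

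**Figure D1:**
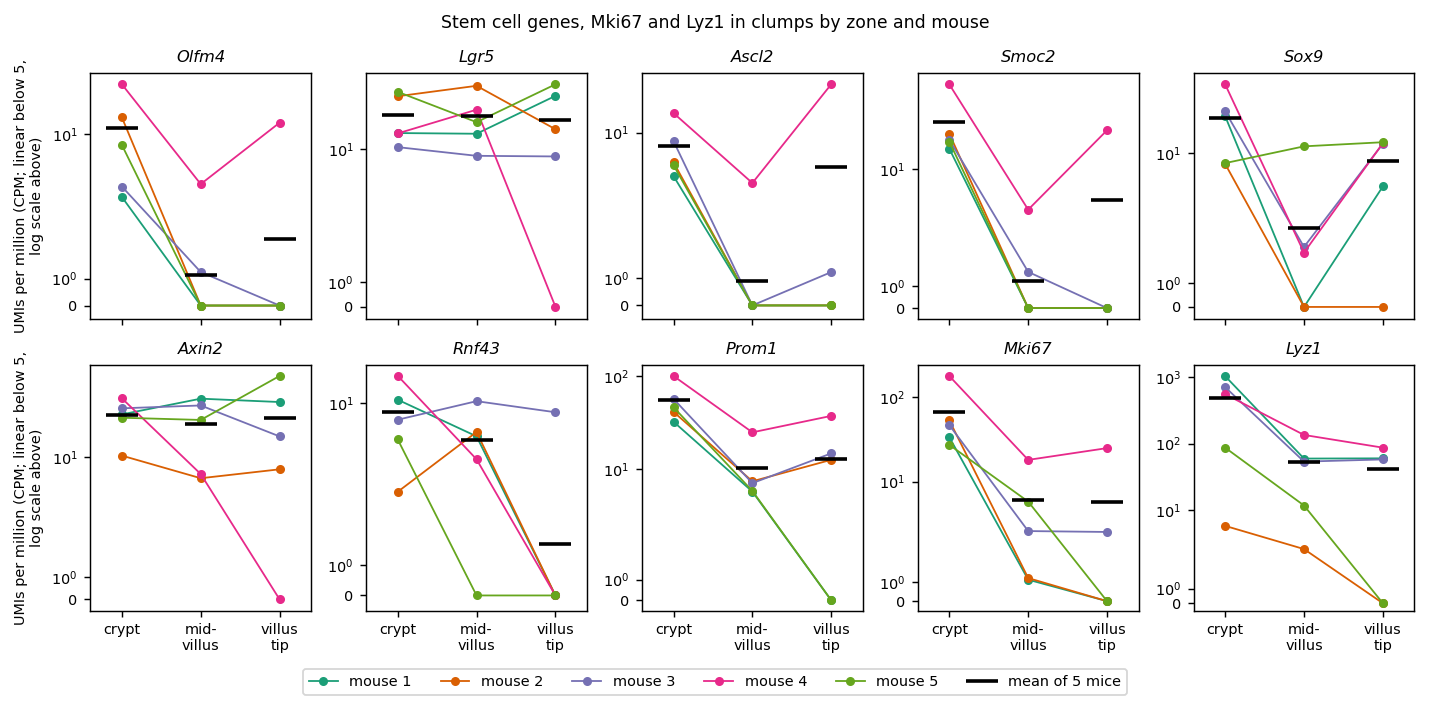
Level of each gene (y axis, CPM, linear below 5 and logarithmic above) in crypt, mid-villus and villus tip clumps (x axis), with 1 line and 1 color per mouse and a black bar for the mean of 5 mice. Smoc2, Ascl2 and Prom1 have no mid-villus value as high as their lowest crypt value, while the lines of Lgr5 and Axin2 cross between zones.

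Counted against each mouse's own crypt level, the genes fell into different ranges. The mid-villus held 0.0517 to 0.159 of the expected UMIs of Smoc2, Ascl2, Sox9, Olfm4 and Prom1, and 0.965 to 1.04 of those of Rnf43, Axin2 and Lgr5. These ratios carry counting error only, and mouse 3 held 2417241 of the 4725068 mid-villus UMIs, so it weighs most in them. It had 25 of the 37 Rnf43 UMIs, and without it the Rnf43 ratio was 0.598, from 12 UMIs, and those of Olfm4, Ascl2 and Smoc2 were 0.0727, 0.124 and 0.0293, from 2 UMIs each. Both Ascl2 UMIs of the mid-villus came from mouse 4.

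**Figure D2:**
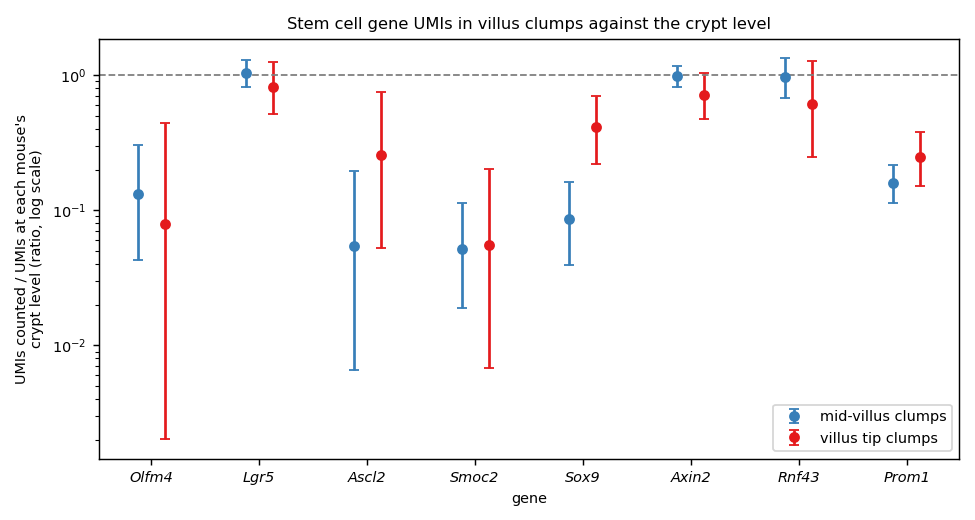
UMIs counted in villus clumps divided by the UMIs that each mouse's crypt level would give (y axis, ratio, log scale) for each gene (x axis), with 95% Poisson intervals for counting error. The mid-villus intervals of Lgr5, Axin2 and Rnf43 include 1 and those of the other 5 genes lie below 0.31.

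The 8 genes also differed in their profiles over the 15 sums of mouse and zone. The Pearson correlation of log2(CPM + 1) with the sum of the other 7 genes was 0.80 for Smoc2, 0.78 for Olfm4, 0.69 for Ascl2 and 0.69 for Sox9, and 0.32 for Rnf43, 0.31 for Prom1, -0.11 for Axin2 and -0.25 for Lgr5. These points share libraries and differ strongly in depth, so they are a description. Of 14308 genes, the 5 whose profile was most like the 8 genes summed were Snrpd3 (0.94), a core protein of the spliceosome, Tardbp (0.93), an RNA-binding protein, Fbl (0.93), the nucleolar methyltransferase fibrillarin, Kcnq1 (0.92), a potassium channel, and Spc24 (0.91), a kinetochore protein.

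Lgr5 also stood apart in wells that were nearly empty. In 6132 clump wells with fewer than 200 UMIs, which hold little cell RNA, 31 of 435756 UMIs were Lgr5, or 71.1 CPM (95% Poisson interval 48.3 to 101). By mouse that was 48.5, 26.7, 51.1, 159 and 95.3 CPM, higher than the crypt level of the same mouse in 4 of 5. Its ratio to the crypt level, 3.80, was above that of 96.0% of 10673 genes, whose median ratio was 0.768. Sox9 had a ratio of 1.49 (80.1% of genes lower), Smoc2 0.856, Axin2 0.422 and Prom1 0.501, and Olfm4 had no UMI there, for which a limit of 3 UMIs is 6.88 CPM. Among crypt clumps Lgr5 was 50.3 CPM in those of 500 to 1000 UMIs and 11.9 CPM in those over 10000, while Olfm4 went from 9.15 to 22.7 CPM. These values are pooled over 5 mice, whose mix differs with depth, so depth and mouse cannot be told apart in them. In near-empty wells of single cells Lgr5 had 2 UMIs, or 10.5 CPM (interval 1.27 to 37.8). How much of the villus level of Lgr5 comes from RNA outside cells was not tested.

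After every clump was thinned to 500 UMIs, so that depth was equal, the share of clumps with an Lgr5 UMI was 1.11% ± 0.55 for crypt clumps, 0.538% ± 0.426 for mid-villus clumps and 0.761% ± 0.747 for tip clumps (SD over 5 mice). For Smoc2 it was 1.46% ± 1.30 in the crypt, with 0 of 1550 mid-villus and 0 of 804 tip clumps, which allows shares of up to 0.194% and 0.373%, and for Prom1 2.93% ± 1.12, 0.559% ± 1.07 and 0.202% ± 0.298. Unthinned, a UMI of Lgr5 was found in 8.78%, 4.19% and 2.61% of the clumps of the 3 zones and a UMI of Prom1 in 32.3%, 2.45% and 1.87%.

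At least 1 UMI of the 8 genes was found in 1809 of 3529 crypt clumps (51.3%), in 225 of 1550 mid-villus clumps (14.5%) and in 74 of 804 tip clumps (9.20%). UMIs of 4 or more of the genes were found in 383 crypt clumps, in 1 mid-villus clump and in no tip clump. Where Lgr5 was found it was the only one of the 8 in 28.4% of crypt clumps, 75.4% of mid-villus clumps and 95.2% of tip clumps. The median depth of the clumps with Lgr5 fell as well, from 10794.5 UMIs in the crypt to 3521 in the mid-villus and 3073 at the tip.

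Between larger clumps and pairs of the crypt no gene passed an exact test that leaves out the pairing by mouse. Sox9 averaged 26.7 ± 17.4 CPM in larger clumps (SD, n = 3 mice) and 9.84 ± 8.89 CPM in pairs (n = 5, exact permutation test, two-sided, p = 0.11), and Axin2 32.5 ± 5.52 against 15.6 ± 12.9 CPM (exact p = 0.11). Sox9, Axin2, Smoc2 and Ascl2 were higher in the larger clumps of each of the 3 mice that had both kinds. For mouse 5 this sets 0 UMIs of each in its 17 pairs of the crypt, which sum to 38199 UMIs, beside the levels of its larger clumps. Lgr5 was 13.88 CPM in larger clumps and 13.94 in pairs of mouse 1, with no difference to read, and lower in the larger clumps of mouse 4. In mouse 5 the pairs held 2 Lgr5 UMIs, and no direction is read from them. The other 6 genes gave exact permutation p-values of 0.18 to 0.75 (n = 3 and 5), unadjusted for the 8 tests.

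The relation of the stem cell genes to division was read from crypt clumps with at least 1 Mki67 UMI and crypt clumps with none, matched on depth (within 20%) within mouse and DNA class. Mice 1 to 4 gave 50, 32, 68 and 556 clumps for each side. Sox9 had 49.8, 33.4, 42.5 and 53.5 CPM in clumps with Mki67 and 19.2, 0, 11.8 and 24.0 CPM in those without. The 2 sides did not overlap, although mouse 2 had only 4 UMIs against 0, and the log2 difference was 1.28 ± 0.41 (edgeR adjusted p = 0.096). Smoc2 had 39.0, 33.4, 36.7 and 83.1 CPM against 12.8, 16.8, 16.3 and 45.7, and Olfm4 6.50, 50.1, 7.33 and 25.6 against 0, 8.42, 4.44 and 12.0. Both were higher with Mki67 in 4 of 4 mice, at 0.84 ± 0.43 (adjusted p = 0.36) and 1.16 ± 0.65 (adjusted p = 0.42). Counts were small outside mouse 4 for Olfm4, at 3 against 0, 6 against 1 and 5 against 3 UMIs in mice 1 to 3. Smoc2 had 4 against 2 UMIs in mouse 2, so these mice add little to the common direction.

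No stem cell gene passed the edgeR test, against 4.39% of 12291 genes tested, and DESeq2 called none either. Sox9 was the 1 gene of the 8 with an unadjusted p under 0.05. Both sides of the split come from the same mice, and with the mouse as a block 3 of the 8 passed, against 16.6% of all genes: Sox9 (1.26, adjusted p = 0.00021), Smoc2 (0.89, adjusted p = 0.0082) and Olfm4 (1.11, adjusted p = 0.038). Ascl2, Rnf43, Axin2 and Prom1 differed by 0.66, 0.99, 0.54 and 0.22 without the block and none passed with it. Lgr5 differed by 0.18 (95% interval -0.76 to 1.12), higher with Mki67 in mice 2 and 4 and lower in mice 1 and 3.

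In the same split, 13 of 20 genes of dividing cells were higher with Mki67 (median 1.82), led by Hmgb2 and Stmn1, and 10 of 10 villus enterocyte genes were lower (median -2.54), led by Anpep and Alpi, brush border enzymes. Slc12a2 was the called gene among 13 tested of the other stem cell markers (1.31, adjusted p = 0.046, median 0.92), and the Wnt list (median 0.34, 19 tested), the Notch list (0.27, 9 tested) and the Paneth granule list (-0.36, 17 tested) had no call. Gzma, of cytotoxic T cells, was the called gene among 4 immune genes (4.66), and 2 stromal genes had no call. The median over all genes was 0.05. With the mouse as a block 20 of 20 genes of dividing cells, 5 other stem cell markers, 4 Wnt genes, 1 Notch gene and 3 immune genes were higher, and 9 Paneth granule genes and 1 Wnt gene were lower. Over all genes the count of 540 was 133, 115, 102 and 882 without mice 1, 2, 3 and 4. Clumps with Mki67 thus differed in their enterocyte RNA as well, and its part in the values of the stem cell genes was not tested. In mouse 4 the matched sides held 5309057 and 4504365 UMIs, so its clumps with Mki67 were the deeper ones.

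**Figure D3:**
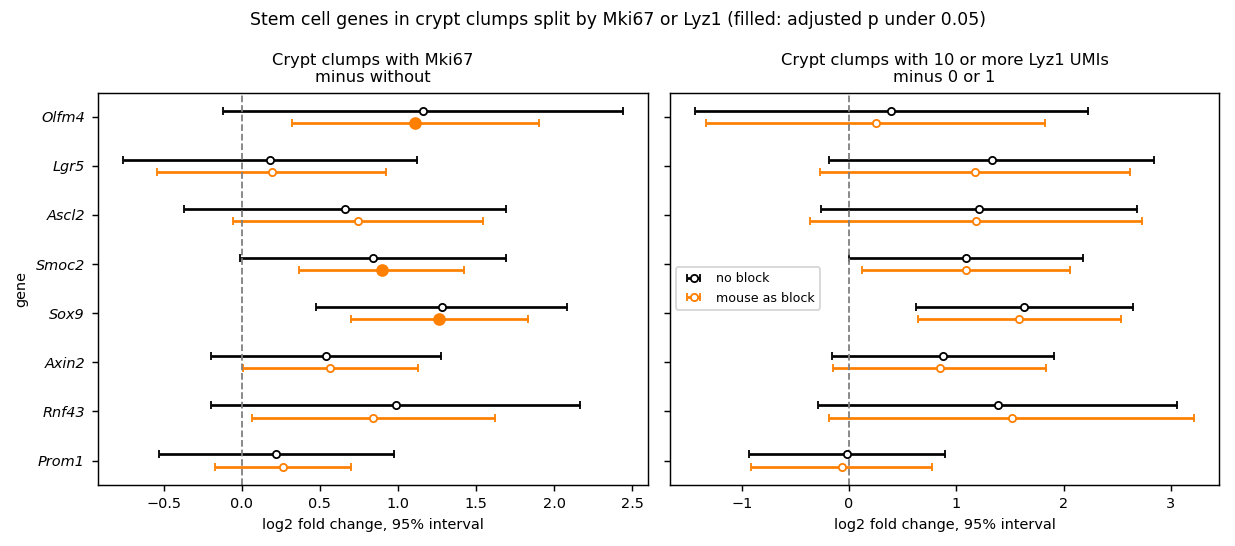
Log2 fold change of each stem cell gene (y axis) between matched crypt clumps with and without Mki67 (left, 4 mice) and with 10 or more against 0 or 1 Lyz1 UMIs (right, 3 mice), with 95% intervals from the standard error, without a block in black and with the mouse as block in orange. Filled points mark an edgeR adjusted p under 0.05 and belong to Sox9, Smoc2 and Olfm4 in the left panel with the block.

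Paneth cells and stem cells lie side by side in the crypt base. Crypt clumps with at least 10 Lyz1 UMIs were set against matched crypt clumps with 0 or 1, which left 13, 13 and 36 clumps a side in mice 1, 3 and 4. Sox9 had 49.5, 39.4 and 45.3 CPM in the Lyz1-rich clumps and 15.9, 28.4 and 36.4 CPM in the others, higher in 3 of 3 mice. Prom1 went the other way in CPM, with 22.01, 61.9 and 49.8 against 53.0, 90.9 and 115, lower in 3 of 3. Lgr5 had 33.0, 11.3 and 10.6 CPM against 10.6, 11.4 and 15.2, with no common direction, and Smoc2 27.5, 45.0 and 42.2 against 21.2, 11.4 and 59.1.

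No stem cell gene passed this test, against 0.861% of 7315 genes, and none with the mouse as a block, against 1.7%. DESeq2 called none of the 8 either. Sox9 differed by 1.63 ± 0.52 (edgeR adjusted p = 0.39; 0.060 with the block). It was the 1 gene of the 8 with an unadjusted p under 0.05 without the block, and Smoc2 (1.09) was also under it with the block. Paneth RNA filled a large share of these clumps, with Lyz1 at 10537, 11949 and 9725 CPM, and the scaling decided the direction of several genes. TMM factors were 0.55 to 0.81 for the Lyz1-rich sums and 1.40 to 1.45 for the others, and without them the median of all genes moved from -0.07 to -1.03 and the calls from 63 higher and 0 lower to 54 and 52. Axin2 changed from 0.88 to -0.11, Olfm4 from 0.39 to -0.52, Prom1 from -0.02 to -0.96 and Sox9 from 1.63 to 0.64, while Rnf43 (1.39 and 0.41), Lgr5 (1.33 and 0.33), Ascl2 (1.21 and 0.29) and Smoc2 (1.09 and 0.15) stayed above 0 under both. Relative to the median of all genes, each of the 8 differed by about the same amount under both scalings. All 17 tested Paneth granule genes were higher (median 9.49), and the lists of dividing cells (0.26, 20 tested), villus enterocytes (-1.13, 10 tested), other stem cell markers (1.22, 8 tested), Wnt (-0.22, 12 tested) and Notch (-0.32, 2 tested) had no call. With the mouse as a block 1 other stem cell marker and 1 gene of dividing cells were higher and 3 villus enterocyte genes lower. Mki67 differed by 0.10.

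Read from the other side, crypt clumps with a UMI of any of the 8 genes were matched with crypt clumps without one (136, 70, 156, 420 and 31 clumps a side in mice 1 to 5). After matching, the side with a stem cell gene still held more UMIs in each mouse, with 2435542 against 2069449 in mouse 4. Mki67 had 37.6, 66.01, 65.6, 165 and 0 CPM in clumps with a stem cell gene and 26.3, 20.6, 21.6, 95.2 and 15.3 CPM in those without, higher in 4 of 5 mice. Lyz1 had 995, 9.90, 906, 212 and 103 CPM against 403, 0, 126.4, 429 and 15.3, also higher in 4 of 5 and lower in mouse 4, where mice 2 and 5 rest on 3 against 0 and 7 against 1 UMIs. The share of clumps with a Lyz1 UMI was 27.9, 2.86, 21.8, 43.3 and 6.45% against 27.9, 0, 19.9, 45.2 and 3.23%. The fit without a block gave 0.77 ± 0.52 for Mki67 (edgeR adjusted p = 0.92) and 1.04 ± 0.86 for Lyz1 (adjusted p = 0.93). It called 0 of 11781 genes (0%), where 671 had an unadjusted p under 0.05 and DESeq2 called 3. With the mouse as a block 1066 genes (9.05%) were called, Mki67 (0.86, adjusted p = 0.0011) and Lyz1 (1.03, adjusted p = 0.0077) among them.

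The blocked fit put Slc12a2 (2.22), Ifitm3 (2.05), Cdca7 (1.93) and Cd24a (1.70) among the 5 genes most clearly higher in clumps with a stem cell gene, each higher in 5 of 5 mice. Slc12a2 had 82.0, 59.4, 162, 108 and 73.6 CPM with and 18.8, 13.7, 13.7, 30.4 and 15.3 CPM without. Cd24a, a surface protein of crypt and Paneth cells, had 160, 59.4, 118, 77.2 and 58.9 CPM against 30.02, 17.2, 35.3, 30.9 and 0. Gip, an enteroendocrine hormone, was the gene of smallest adjusted p (4.72), but 60.5% of its crypt UMIs lay in 1 clump. Lct, the lactase of the brush border (-1.45), Maf (-1.31), Zg16, a goblet cell protein (-1.19), Gsta1 (-1.17) and Apoa1, an apolipoprotein of enterocytes (-0.97), were the lower genes with the smallest adjusted p. Without the block no list had a call: dividing cells had a median of 0.87 over 20 genes, Paneth granule 0.98 over 17, other stem cell markers 1.83 over 12, Wnt 0.31 over 18, Notch 0.05 over 8, villus enterocytes -0.78 over 10, immune cells -2.51 over 2 and stromal cells -1.06 over 2, beside 0.03 for all genes. With the block 17 of 20 genes of dividing cells, 12 of 17 Paneth granule genes, 9 of 12 other stem cell markers, 3 Wnt genes and 1 Notch gene were higher, and 10 of 10 villus enterocyte genes and 1 stromal gene were lower. These genes were named from the blocked fit, after its values were seen.

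Among single cells, 5199 of 16850 wells passed the filters, with a median of 1689 UMIs and 2317614 to 3441548 UMIs per mouse. Of their 11751420 UMIs, Lgr5 had 187, Sox9 184, Prom1 148, Axin2 98, Rnf43 69, Smoc2 42, Olfm4 25 and Ascl2 3. Ascl2 was at 0, 0.581, 0.292 and 0 CPM in the 4 mice, below every crypt value of the clump mice. Olfm4 had 0.389, 1.16, 5.26 and 0.863 CPM, Smoc2 0.389, 3.49, 6.14 and 3.45 CPM and Prom1 5.84, 19.8, 14.9 and 6.04 CPM.

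Mean levels in crypt clumps (n = 5) and single cells (n = 4) were 7.76 ± 3.99 and 0.218 ± 0.278 CPM for Ascl2, 30.03 ± 23.8 and 3.37 ± 2.35 for Smoc2, and 55.2 ± 26.5 and 11.6 ± 6.87 for Prom1 (SD over mice). These 3 genes did not overlap between the tables, and each gave the smallest p the exact permutation test allows here, 0.016 (two-sided, unadjusted for the 8 genes). Mki67 did not overlap either. The share of all genes that do not overlap was not computed, so these 3 are not read as unusual. Olfm4 (11.2 ± 8.99 and 1.92 ± 2.25) and Axin2 (25.8 ± 10.1 and 8.83 ± 3.88) gave exact p = 0.048 each. Lgr5 averaged 20.1 ± 10.2 CPM in crypt clumps and 15.1 ± 7.06 in cells (exact p = 0.37), Sox9 21.1 ± 14.4 and 14.0 ± 17.6 (exact p = 0.43) and Rnf43 8.58 ± 4.88 and 5.80 ± 1.27 (exact p = 0.33), ranges that overlap. The tables differ in dissociation and sort, which cannot be told apart here, whether they share mice is not given in the labels, and the single cells include villus cells. Leaving out 1 mouse ended the call of Olfm4 in 8 of 9 cases and that of Axin2 in 8 of 9, and without mouse 2 of the cells Sox9 differed by 15.9 CPM and passed.

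Wells set aside for too many UMIs or genes held much of the stem cell RNA. These 1564 wells carried 39.9% of all UMIs of the table but 85.0% of the Ascl2 UMIs, 80.0% of Olfm4, 77.1% of Smoc2, 68.6% of Sox9, 67.2% of Prom1 and 57.7% of Axin2. Lgr5 with 44.5% and Rnf43 with 38.5% were close to the share of all UMIs, and Mki67 (71.5%) and Lyz1 (93.3%) were above it. These shares are pooled over mice, and for Ascl2 they rest on 17 UMIs here and 3 in kept cells. Mouse 2 gave 11 of the 17 Ascl2, 286 of the 427 Sox9 and 19609 of the 21603 Lyz1 UMIs in these wells. In CPM, Olfm4 had 6.41, 10.8, 10.1 and 3.95 in these wells, higher than in the kept cells of the same mouse in 4 of 4, although 17 of the 23 UMIs of mouse 1 lay in 1 well (means 7.80 and 1.92, exact permutation p = 0.057 with n = 4 each, smallest possible 0.029). Smoc2, Sox9, Axin2 and Prom1 were also higher there in 4 of 4 mice, with exact p of 0.057, 0.46, 0.17 and 0.086. Ascl2 was higher there in 2 of 4 mice and had 0 UMIs in the other two, with means of 0.956 and 0.218 CPM (exact p = 0.43). After thinning every well to 500 UMIs, the share of wells with a UMI was 2.24% above the limits and 1.05% in kept cells for Sox9, 0.831% and 0.669% for Prom1, 0.384% and 0.314% for Axin2, 0.128% and 0.105% for Olfm4 and 0.192% and 0.209% for Smoc2, pooled over mice and without a test. For Olfm4 and Smoc2 these are 2 and 3 wells above the limits. Whether these wells hold large cells or more than 1 cell was not tested.

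**Figure D4:**
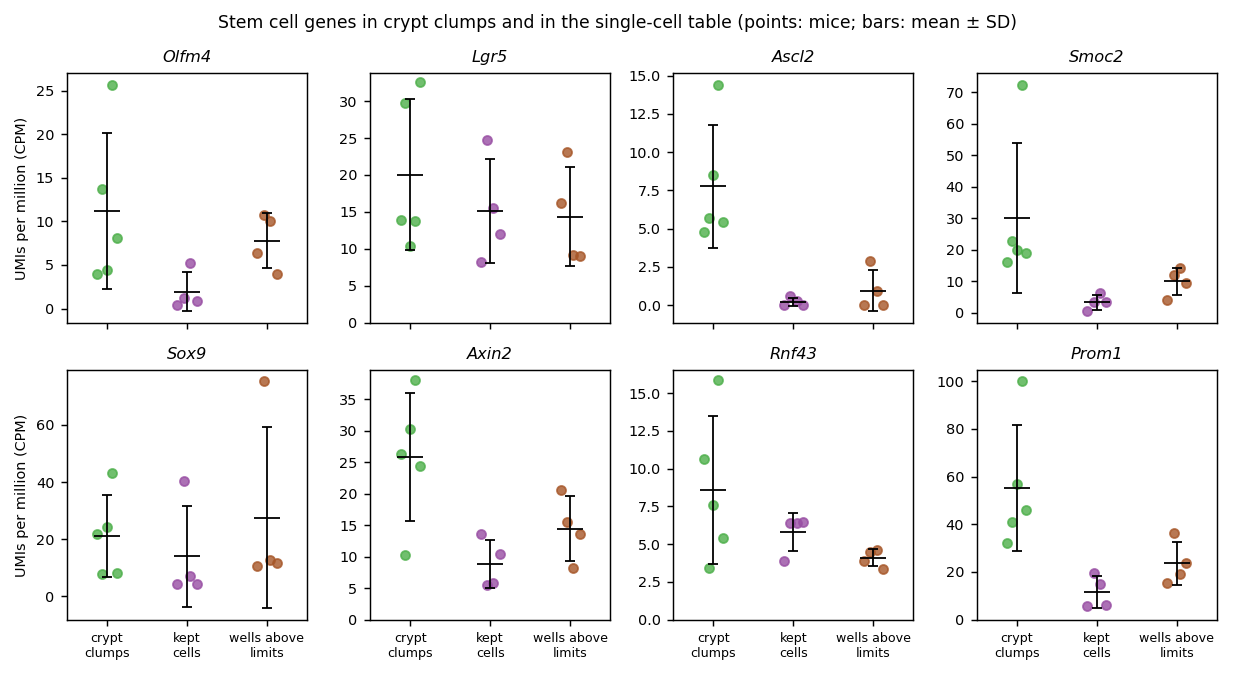
Level of each stem cell gene (y axis, CPM) in crypt clumps (5 mice), kept single cells (4 mice) and wells above the upper UMI and gene limits (4 mice); points are mice and bars the mean ± SD. Ascl2, Smoc2 and Prom1 do not overlap between crypt clumps and kept cells, and Lgr5 overlaps across all 3.

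Clusters of the kept cells were named from marker genes, with the 8 genes kept out of the clustering: enterocyte-like (2510 cells), immune-like (1723, hemoglobin genes among the leading genes), enteroendocrine-like (245), goblet-like (211), tuft-like (186), and clusters of 182 and 142 cells left unnamed, led by MHC class II and immunoglobulin genes. No cluster was led by genes of dividing or Paneth cells. A stem cell cluster could not be named, because the 8 genes were also left out of the ranking and no stem cell list was used. When cells were instead classed by their highest marker sum of at least 10 UMIs, 11 dividing-like cells (2 mice, 35422 UMIs) and 21 Paneth-like cells (1 mouse) were set apart. The dividing-like cells held 5 UMIs of Prom1, 4 of Olfm4, 3 each of Lgr5, Sox9 and Axin2, 2 of Smoc2, 1 of Rnf43 and none of Ascl2, and the Paneth-like cells 2 of Prom1 and 1 each of Lgr5 and Sox9. Doublets were treated only by the upper limits.

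Sox9 stood highest in tuft-like cells, chemosensory cells of the epithelium, with 205, 346 and 308 CPM in the 3 mice with at least 5 such cells, and a UMI was found in 91 of 182 of them (median 2112 UMIs in the mouse with most). Enterocyte-like cells had 0, 2.74, 3.35 and 1.59 CPM and a UMI in 0.518% of cells. The groups lay far apart, and the exact permutation test gave p = 0.057, the smallest it allows with 3 against 4 mice. Goblet-like cells had 0, 0, 49.9 and 42.5 CPM of Sox9 (exact p = 0.43), and enteroendocrine-like cells 20.3 CPM in mouse 2 and 0 in the others.

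Prom1 was higher in goblet-like cells, at 51.6, 53.5, 79.8 and 170 CPM, than in enterocyte-like cells, at 2.16, 4.80, 14.4 and 4.77 CPM (exact permutation p = 0.029, the smallest possible with 4 against 4). Tuft-like cells had 93.4, 105 and 61.6 CPM of Prom1 (exact p = 0.057), of which the last is a single UMI. A Prom1 UMI was found in 20.3% of tuft-like, 13.7% of goblet-like and 1.83% of enterocyte-like cells. Lgr5 had 37.3, 23.4 and 61.6 CPM in tuft-like cells and 6.91 to 22.6 CPM in enterocyte-like cells (exact p = 0.057, smallest possible). The tuft-like values rest on 11 UMIs in all, and the 61.6 CPM is a single UMI, so no difference is read from them. With types by marker sum the tuft-like values of 4 mice ran from 0 to 47.0 CPM and overlapped the enterocyte-like ones (exact p = 0.23). Lgr5 averaged 13.8 CPM in enterocyte-like, 16.1 in immune-like, 11.1 in goblet-like and 15.9 in enteroendocrine-like cells. It averaged 15.5 in the unnamed cluster led by MHC class II genes and 34.3 (0 to 91.5 over 3 mice) in that led by immunoglobulin genes. The mean of Lgr5 in immune-like cells was thus not below that in enterocyte-like or goblet-like cells, and the source of its UMIs was not tested. Its share of cells with a UMI was 2.147% in immune-like cells (median 870 UMIs) and 3.82% in enterocyte-like cells (median 2852 UMIs).

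The 3 Ascl2 UMIs of kept cells all lay in tuft-like cells. The place of Olfm4 and Smoc2 turned on how cells were classed. The enterocyte-like cluster held 22 of 25 Olfm4 UMIs (8.14 CPM in mouse 3 and 0.432 to 1.37 in the others) and 28 of 42 Smoc2 UMIs. By marker sums, enterocyte-like cells held 2 Olfm4 UMIs and 9 Smoc2 UMIs, while cells without a class held 17 and 16, dividing-like cells 4 and 2, and enteroendocrine-like cells 0 and 10. Smoc2 averaged 3.57 CPM in the enterocyte-like cluster and 3.83 in goblet-like cells (exact p = 0.91), and 1.32 and 13.7 CPM by marker sums (exact p = 0.14), where the goblet-like values are 2 and 3 UMIs in all. Axin2 had 1.25 CPM in goblet-like and 9.66 in enterocyte-like cells, but the former is 1 UMI in all, so no comparison is drawn. The 245 enteroendocrine-like cells held 0 UMIs of Olfm4 and 1 of Rnf43. In mice 1, 3 and 4 these cells summed to 25706, 20587 and 11299 UMIs, in which the enterocyte-like level of either gene gives less than 1 UMI, so no comparison is drawn. Enteroendocrine-like cells, of which mice 1, 3 and 4 had 8 to 10 each and mouse 2 had 217, held 3, 4, 0 and 1 Axin2 UMIs in mice 1 to 4, and no level is read from them either. These are 24 comparisons (8 genes, 3 classes) with unadjusted p-values.

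**Figure D5:**
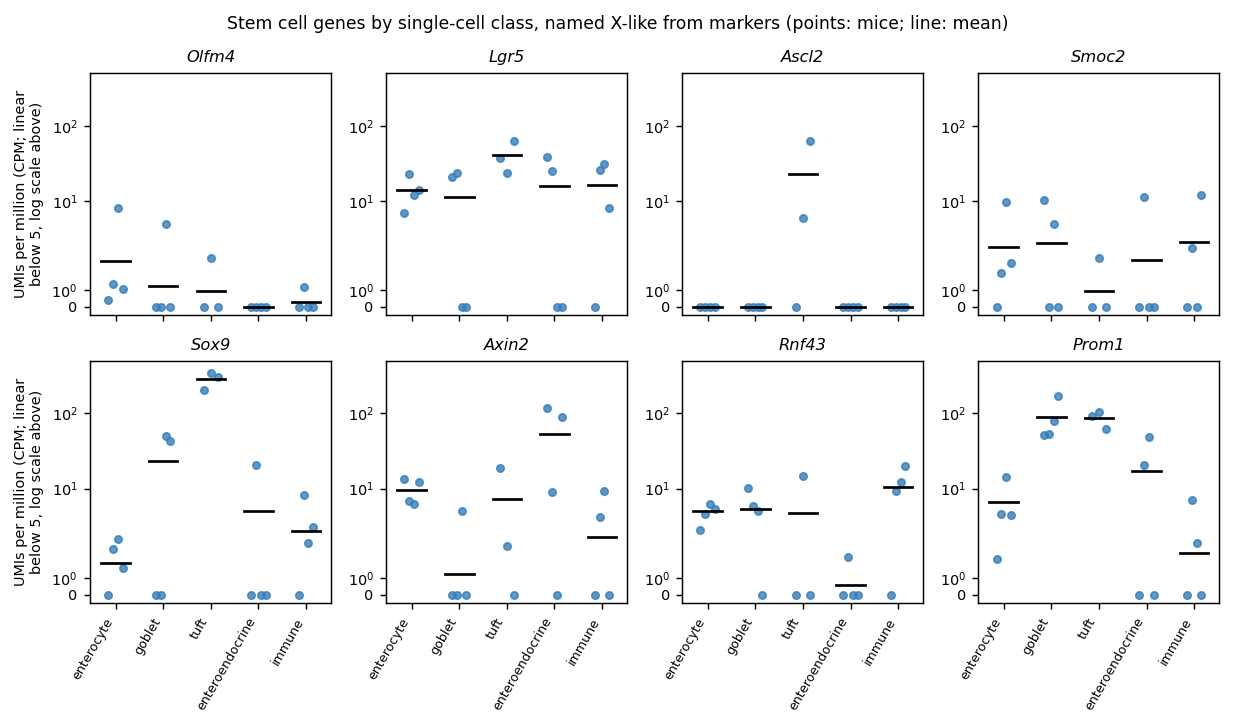
Level of each stem cell gene (y axis, CPM, linear below 5 and logarithmic above) by cell class named from markers (x axis), with 1 point per mouse and a line for the mean. Sox9 lies at 205 to 346 in the 3 mice with at least 5 tuft-like cells. Prom1 is above 50 in tuft-like cells of these 3 mice, in mouse 3 from a single UMI, and in goblet-like cells of 4 mice.

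UMIs of 2 or more of the 8 genes met in 73 of 5199 kept cells, against 1015 of 3529 crypt clumps, and Lgr5 was the only one of the 8 in 89.0% of the 172 cells that had it. The sort gate differed between plates, also within a mouse. The 5 plates gated on CD24, all from mouse 2, held 86 of that mouse's 139 Sox9 UMIs and 2 of the 3 Ascl2 UMIs of the table. The 3 plates gated on CD45 and Epcam, all from mouse 3, held 11 of that mouse's 18 Olfm4 UMIs. The part of the gate in these levels was not tested.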

How the data were processed

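RNA was measured by MARS-seq in clumps and single cells of the mouse jejunum. The authors demultiplexed the reads (bcl2fastq 2.15.0.4 in the submitters' processing notes), aligned them to GRCm38 with STAR through zUMIs, and deposited raw UMI counts per gene and well, before their subtraction of background from empty wells, which the tables used here do not name. A clump well passed with 200 genes or more, over 500 UMIs and a mitochondrial share no higher than 30%. In mice 1 to 5, 6004 wells passed. The clump table holds 17162 wells, but these include the wells of the sixth mouse, so no share is given. Of the wells that passed, the 2% with the lowest landmark share were dropped. Each clump was given the zone (crypt, mid-villus, villus tip) whose landmark genes, 70 in all from the study's tables, its values correlated with best. Single cells were kept when they held 150 to 1500 genes, 200 to 7000 UMIs and no more than 40% mitochondrial UMIs. Well names did not repeat, and the 384 well barcodes are shared by design between plates, none of which is in both tables.

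Counts were summed by mouse and zone, or by mouse and side of a split whose clumps were matched on depth within 20%, and fitted with edgeR 4.0.16 (quasi-likelihood, TMM, genes with at least 20 UMIs, Benjamini-Hochberg adjusted p under 0.05) in R 4.3.3, with landmarks and the genes that define a split left out. DESeq2 1.42.0 was an alternative. Same-numbered sums come from the same animal, and their deviations correlated at r = 0.177 to 0.571; the mouse as a block is given where it changes a call of the 8 genes or a count of a list. Levels per mouse were compared with exact two-sided permutation tests (scipy 1.17.1), which keep no pairing. Cells were clustered with scanpy 1.11.5 (2000 variable genes, 25 components, 20 neighbors, resolution 0.1) without the 8 genes, and a cluster was named from at least 3 markers among its top 50 genes. The fit was tested on simulated data. Named genes were the 8 genes, Mki67 and Lyz1, of each other list the 2 called genes with the smallest adjusted p, the 5 genes most like the summed 8, and the 5 called genes per direction with the smallest adjusted p in the split by stem cell genes. The genes and lists were chosen with earlier results of these data known. Fits without TMM factors, the split without Lgr5 and villus ratios without each mouse were chosen after seeing the data. A sixth mouse with a different DNA gate served only as an alternative. Intervals of counts are 95% and cover counting error only.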

Additional observations from a re-analysis of the deposited data

Results flagged for a closer look

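Among 76 groups of 4 or 5 mice, 24 had a value far from the others by Dixon's criterion at the 95% level, where chance gives about 1 in 20, and many of these groups were at 0 in all other mice.

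Mouse 4 stood above the other clump mice in the crypt for Smoc2 (72.4 CPM, others 16.1 to 22.8) and Mki67 (176 CPM, others 27.1 to 52.5). It was also the high value in the mid-villus for Olfm4 (4.50 CPM), Ascl2 (4.50), Prom1 (24.7) and Mki67 (18.0), and at the tip for Olfm4 (12.4), Ascl2 (24.8), Smoc2 (24.8) and Mki67 (24.8). Its tip sum held 80671 UMIs from 27 clumps, so each of these tip values is 1 or 2 UMIs. Mouse 5 was high for Sox9 in the mid-villus (11.6 CPM, from 2 UMIs) and mouse 3 for Rnf43 at the tip (8.58 CPM, others 0).

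In single cells mouse 2 was high for Sox9 (40.4 CPM, others 4.28 to 7.01) and Lyz1 (221 CPM), mouse 3 for Olfm4 (5.26 CPM, and 8.14 in enterocyte-like and 4.99 in goblet-like cells) and for Axin2 in goblet-like cells (4.99), and mouse 1 was low for Rnf43 (3.89 CPM, others 6.39 to 6.47). In enteroendocrine-like cells, 217 of 245 of which came from mouse 2, that mouse was high for Smoc2 (11.3 CPM), Sox9 (20.3), Rnf43 (2.25), Mki67 (6.76) and Lyz1 (401).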

How the results depend on the processing

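Of 1015 values recomputed under an alternative, 863 kept their direction and side of the threshold or stayed near the main value. The causes of the other changes were not tested.

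With the mouse as a replicate block, the pairing raised the Mki67 split from 540 to 2041 called genes and from 0 to 3 stem cell genes, the Lyz1 split from 63 to 124 and the stem cell gene split from 0 to 1066; it changed no other count of all genes called by over 1.5 times and no call of a stem cell gene in the zones. Without TMM factors the Lyz1 split called 106 genes and the stem split 1, and Axin2 (-0.11), Olfm4 (-0.52) and Mki67 (-0.84) reversed in the Lyz1 split. Scaling also moved the split of calls: 883 higher and 3936 lower in the mid-villus with DESeq2 size factors (1259 and 2890 with TMM), 1268 and 3947 at the tip without TMM (1709 and 3227), and 207 and 305 in the Mki67 split without TMM (148 and 392). Lgr5 turned to -0.17 at the tip and -0.15 in the mid-villus with DESeq2, to -0.17 and -0.09 with its size factors in edgeR, to -0.31 and -0.22 with mouse 6, and at the tip to -0.19 without TMM, -0.04 in clumps over 1000 UMIs and -0.28 in pairs only; none of these passed. Lyz1 was 0.58 at the tip with zones set by z score, and Axin2 0.44 in the mid-villus in pairs only. The same z score zones ended the mid-villus call of Lyz1 (-3.01, edgeR adjusted p = 0.058), and in pairs only Ascl2 passed at the tip (-2.61, adjusted p = 0.046).

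The mid-villus called 2529 genes in pairs only, and filterByExpr left 3 stem cell genes called there. The Mki67 split called 845 genes unmatched on depth, 152 in pairs and 0 in larger clumps, where 731 had an unadjusted p under 0.05; Lgr5 was -0.27 and -0.04 and Lyz1 0.50 and 0.64 unmatched and in pairs. In the Lyz1 split Prom1 was 0.01 with DESeq2, 0.43 unmatched and 0.12 at a limit of 3 UMIs, and Mki67 -0.07 in larger clumps only; pairs only could not be run, since only mouse 3 had enough clumps. The stem split called 3 genes with DESeq2, 1 with its size factors, 10 with no filter and 1 when Lgr5 was left out of the split. With cells classed by marker sums, the difference from enterocyte-like cells was 0.936, 0.405 and -0.294 CPM for Olfm4 in goblet-, tuft- and enteroendocrine-like cells, 71.1 for Smoc2 in enteroendocrine-like cells, 296 for Sox9 and 77.3 for Prom1 in tuft-like cells (exact p = 0.029 each with 4 mice) and -7.01 for Axin2 in goblet-like cells. No comparison is drawn from the Axin2 value or from Olfm4 in enteroendocrine-like cells, which rest on too few UMIs.

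Leaving out 1 mouse gave 3215 (without mouse 3) to 5380 calls at the tip, 2565 (without mouse 3) to 4434 in the mid-villus, 102 to 882 in the Mki67 split, 0 to 10 in the stem split (10 without mouse 4), 2 to 4 stem cell genes at the tip and 4 to 5 in the mid-villus. Log2 changes ranged from -0.80 to 0.19 for Axin2 and -0.26 to 0.25 for Lgr5 at the tip, -0.46 to 0.29 for Axin2 and -0.88 to 0.12 for Rnf43 in the mid-villus, -0.00 to 0.47 for Lgr5 and -0.69 to 0.16 for Lyz1 in the Mki67 split, and -0.14 to 0.44 for Prom1 and -0.01 to 0.74 for Mki67 in the Lyz1 split. Crypt minus cells ranged from 5.65 to 11.1 CPM for Olfm4, 1.58 to 15.9 for Sox9 and 14.0 to 20.9 for Axin2, and larger minus pairs from -0.970 to 10.3 for Olfm4, -5.40 to 1.02 for Rnf43 and -11.2 to 23.5 for Prom1. Against enterocyte-like cells, goblet-like cells ranged from -2.75 to 0.293 CPM for Olfm4, -6.95 to 0.973 for Lgr5, -1.91 to 2.26 for Smoc2, -9.66 to -7.18 for Axin2, -1.41 to 2.03 for Rnf43 and 55.1 to 94.5 for Prom1; tuft-like cells from -2.75 to 0.0222 for Olfm4, -8.20 to 1.14 for Axin2 and -5.05 to 2.27 for Rnf43; enteroendocrine-like cells from -3.52 to -0.954 for Olfm4, -5.56 to 7.41 for Lgr5, -3.57 to 1.25 for Smoc2, -1.92 to 4.84 for Sox9 and -5.05 to -4.10 for Rnf43. With 3 against 4 mice no p below 0.0571 is possible.

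Villus sums hold few UMIs of these genes, so tip values of 1 or 2 UMIs set no level, and 0 UMIs in a sum of 79055 allow up to 3 UMIs.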

Other observations

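In the sixth mouse, sorted on a lower DNA content and used only as an alternative to the fit over zones, Lgr5 had 31.6, 15.7 and 21.1 CPM in crypt, mid-villus and tip clumps. Axin2 had 12.6, 15.7 and 21.1 CPM and Prom1 26.5, 15.7 and 21.1 CPM. The villus values of these 3 genes are 4 UMIs each in the mid-villus sum of 254377 and 3 UMIs each in the tip sum of 142352. In crypt clumps Olfm4 had 1 UMI, Smoc2 9 and Sox9 7 of 791761, too few to read their 0 UMIs in the small villus sums as a difference.

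Among crypt clumps, 34.2% of those with a Sox9 UMI held at least 10 UMIs of Paneth cell markers, against 17.1% of those without, and 41.8% against 15.9% held as many goblet cell marker UMIs and 5.70% against 0.712% as many tuft cell marker UMIs. Clumps with Lgr5 held Paneth markers at this level in 124 of 310 cases, against 578 of 3219 without. Clumps with either gene were deeper, at a median of 12729 UMIs with Sox9 against 3344.5 without and 10794.5 with Lgr5 against 4008 without, and the part of depth in these shares was not tested.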
